A study of Mus musculus with 18 samples.

Results

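The 6 libraries described here follow mouse embryonic stem cells without doxycycline (Dox) from the start of gastruloid differentiation (day 0, 0 h) to day 3 (72 h). They were chosen by their labels, as the 3 control libraries of each of these days, out of 18 libraries in 6 groups of 3. The study crosses 3 days (0, 3 and 5) with Dox and control to ask what induced Rnaseh1, a nuclease that digests the RNA strand of RNA:DNA hybrids, does to the histone variant H2A.Z and to the choice of lineages. All libraries come from RHKI, a derivative of the mouse line E14Tg2a with a knock-in of HA-tagged Rnaseh1 that responds to Dox, so the controls carry the knock-in too and differ from the Dox groups in treatment alone (500 ng/ml for 48 h before differentiation). Stem cells were kept in 2i/LIF medium, that is NDiff 227 with serum, the cytokine LIF, the GSK3 inhibitor CHIR-99021 and the MEK inhibitor PD0325901. The labels do not give the medium of the aggregates, so day and medium cannot be told apart in the comparison below, and 1 line stands for all embryonic stem cells. Poly(A) RNA was sequenced in bulk, so fewer cells with a transcript and less of it per cell cannot be told apart.

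Embryonic stem cells in 2i/LIF resemble the naive epiblast of the embryo before implantation. On leaving this state the epiblast passes through a formative stage, in which naive factors such as Esrrb and Klf4 are lost while Pou5f1 (Oct4) is kept, and its posterior side then forms the primitive streak under Wnt, Nodal and BMP signals. Gastruloids are aggregates of stem cells that go through much of this sequence in culture, usually after a pulse of Wnt activation, and later extend a posterior end marked by T (Brachyury) and Cdx2.

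The 6 libraries held 27654553 to 38128366 estimated counts. Levels are given as CPM (counts scaled to library size with TMM factors) for 1 gene across libraries, and as the deposited TPM (transcript abundance scaled for length and depth) where levels of different genes are set side by side, in both cases as mean ± SD over 3 libraries. Counts were modelled with edgeR, and a gene was called at a Benjamini-Hochberg adjusted p under 0.05 over 17795 genes tested. Fold changes are log2 values of day 3 against day 0 with their standard error. Their median over all genes was 0.02, and it was 0.165 when libraries were scaled by their size alone, a shift that touches the small changes described below and not the large ones. Replicates lay further apart at day 0 (a median chi-square of 2.7 to 4.39 over genes for a pair of libraries) than at day 3 (1.17 to 1.76). Whether they came from separate cultures is not stated, so a p-value here measures the spread between replicate libraries only, which may be technical. That spread was estimated in 1 fit of all 18 libraries, Dox and day 5 groups included, and may be too small for day 0.

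Between day 0 and day 3 14 of 16 naive factors fell in the control cells (11 of them by at least 4-fold), Pou5f1 was not called, and formative genes and T, Wnt3 and Fgf8 of the streak rose. Of genes that follow in mesoderm, Mesp1, Msgn1 and Tbx6 had little or no RNA at day 3. Others, such as Dll1 and Pcdh8, rose, and of 18 presomitic and segmentation genes tested 8 rose and 7 fell. In all 6627 genes (37.2% of those tested) rose and 6455 (36.3%) fell. By at least 4-fold, 2094 genes (11.8%) rose and 2040 (11.5%) fell. Of the genes that passed, 1630 of those higher and 1610 of those lower moved by less than 0.5 on the log2 scale. At the other end, 309 genes rose and 423 fell by more than 6 on that scale. With this share of the transcriptome moving, the gene lists below are read by size rather than by the adjusted p alone. The shares to set beside each list are 37.2% higher and 36.3% lower, and 11.8% and 11.5% by at least 4-fold. A list whose counts lie near these shares does not stand out from other genes.

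**Figure D1:**
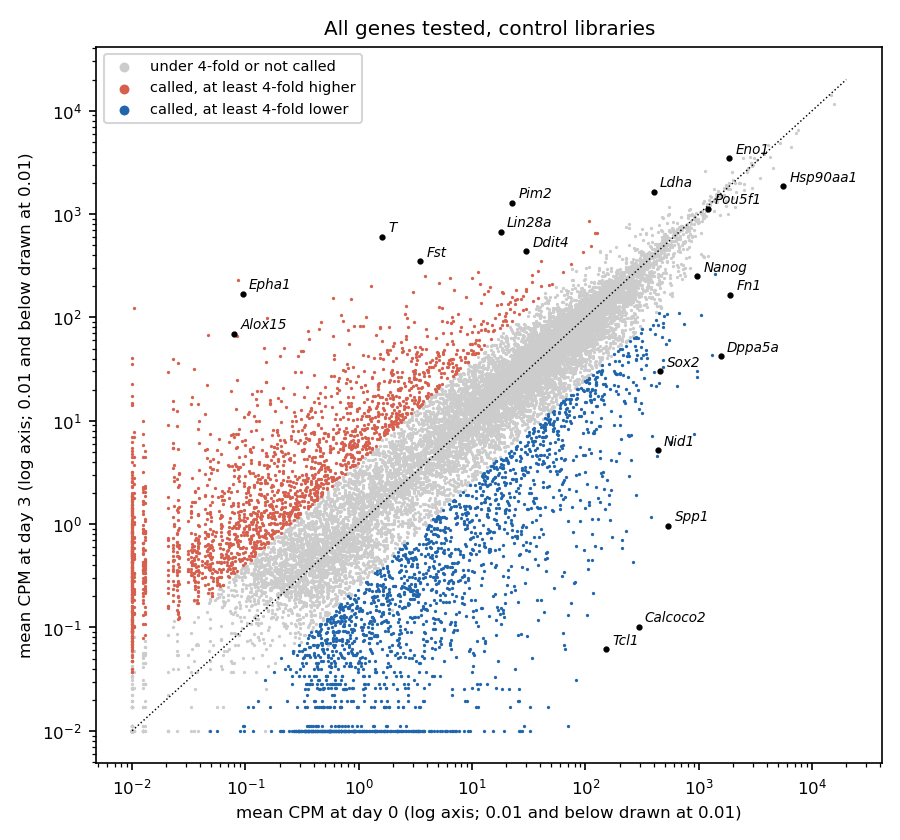
Mean CPM of each gene tested at day 0 (x axis, log scale) and day 3 (y axis, log scale) over 3 control libraries each. Red points are the 2094 genes called at least 4-fold higher, blue points the 2040 called at least 4-fold lower, grey points all others, and values of 0.01 or below are drawn at 0.01. Pou5f1 lies on the diagonal at about 1200 CPM, while Pim2, Lin28a and Epha1 lie far above it and Nid1, Spp1 and Calcoco2 far below.

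At the extremes of this spread 18 genes had at least 10 TPM in each day 3 library and under 0.1 TPM in each day 0 library, and 19 genes had the reverse pattern. Among the former were the receptor Epha1, the homeobox gene Hoxb1, the lipoxygenase Alox15 and the splicing regulator Esrp1. Alox15 stood at 0.039, 0.125 and 0.0749 CPM at day 0 and at 65.5, 79.3 and 64.6 CPM at day 3 (9.65 ± 0.26, edgeR adjusted p = 2e-16). In the opposite direction, the selective autophagy receptor Calcoco2 (chromosome 11, 96099326 to 96111964 on GRCm38) went from 281, 272 and 330 CPM to 0.0996, 0.103 and 0.102 CPM, a 2900-fold fall (-11.44 ± 0.29, edgeR adjusted p = 6.8e-17). Its day 3 values lie near the floor of 3 counts per library, about 0.1 CPM, so the size of this fall is uncertain. Bhmt, which methylates homocysteine, went from 25.2, 26.6 and 24.0 CPM to 0.0332, 0.0257 and 0 CPM, and the Ets factor Spic from 32.5, 36.9 and 28.5 CPM to 0, 0.0514 and 0 CPM. No library of 1 day reached the range of the other day in these genes.

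Promoters of 4 genes that mark the ends of the course are shown because these genes mark the naive, formative and streak stages described below. They are RefSeq sequences of GRCm38.p6, from 250 bases before to 50 bases after the annotated start, and capitals mark matches to 8 motifs searched on both strands. Zfp42 (chr8:43306960-43307259, minus strand) and Nanog (chr6:122707239-122707538, plus strand) encode naive factors, Fgf5 (chr5:98253934-98254233, plus strand) is a formative ligand, and T (chr17:8434173-8434472, plus strand) is the streak factor.
Zfp42: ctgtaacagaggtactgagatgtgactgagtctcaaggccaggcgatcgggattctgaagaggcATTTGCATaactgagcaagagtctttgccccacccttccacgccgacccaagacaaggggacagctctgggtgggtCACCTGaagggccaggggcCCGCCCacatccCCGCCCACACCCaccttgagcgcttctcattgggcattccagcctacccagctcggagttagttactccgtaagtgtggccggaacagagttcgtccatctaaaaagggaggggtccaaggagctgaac
Nanog: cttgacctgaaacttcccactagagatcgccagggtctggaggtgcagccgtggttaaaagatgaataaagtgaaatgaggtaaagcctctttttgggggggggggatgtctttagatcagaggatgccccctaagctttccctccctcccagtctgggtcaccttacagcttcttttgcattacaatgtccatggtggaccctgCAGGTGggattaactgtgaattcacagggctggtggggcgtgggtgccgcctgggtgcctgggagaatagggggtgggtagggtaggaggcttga
Fgf5: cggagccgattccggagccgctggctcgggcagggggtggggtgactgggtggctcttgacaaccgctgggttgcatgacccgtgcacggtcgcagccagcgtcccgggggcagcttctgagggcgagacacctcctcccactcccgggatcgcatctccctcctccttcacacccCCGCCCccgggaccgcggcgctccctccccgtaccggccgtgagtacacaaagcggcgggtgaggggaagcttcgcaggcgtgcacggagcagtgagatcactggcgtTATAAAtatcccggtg
T: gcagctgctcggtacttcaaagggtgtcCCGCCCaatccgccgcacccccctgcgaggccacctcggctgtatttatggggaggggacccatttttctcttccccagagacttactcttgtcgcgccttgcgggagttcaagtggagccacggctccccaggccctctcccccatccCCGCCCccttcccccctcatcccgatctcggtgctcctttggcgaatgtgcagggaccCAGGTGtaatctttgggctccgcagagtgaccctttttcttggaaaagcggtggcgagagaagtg

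The Zfp42 window holds an octamer of POU factors (ATGCAAAT, here on the minus strand, 186 bases before the start), a KLF motif (GGGTGTGG) that overlaps a GC box (GGGCGG), a second GC box and an E-box of the SNAI and ZEB type (CAGGTG). Nanog has 1 E-box, 45 bases before the start shown and 121 bases before another annotated start. Fgf5 has 1 GC box and the letters TATAAA 35 bases after the start, and T has an E-box 15 bases before the start and 2 GC boxes. CpG pairs number 11 in the Zfp42 window and 4 in that of Nanog, against 29 in Fgf5 and 17 in T. Over 15401 RefSeq promoters of 12083 genes tested, the median was 19 CpG pairs per 300 bases. It was 15 in 1852 promoters of genes at least 4-fold higher and 9 in 1672 promoters of genes at least 4-fold lower, and 11.2%, 15.7% and 25.5% of these 3 sets held fewer than 5. A GC box was present in 60.2% of all promoters, 54.2% of those of the higher genes and 44.1% of those of the lower genes. The octamer was present in 1.34%, 1.51% and 1.73% and the KLF motif in 3.73%, 3.46% and 4.13%. An ESRRB motif (TCAAGGTCA) was present in 0.253%, 0.108% and 0.478%, and a TCF/LEF motif (CTTTGAT) in 2.56%, 2.75% and 2.69%. A T-box motif (AGGTGTGA) was present in 0.838%, 0.918% and 1.02%. The E-box was present in 19%, 23.1% and 24.3%, and TATAAA in 7.43%, 9.4% and 10.6%. A match is a string of letters in this window, not a binding site.

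Of the 16 naive pluripotency transcription factors tested, 14 fell, 11 of them by at least 4-fold, with a median of -4.69, and their summed level went from 2550 to 2890 TPM at day 0 to 519 to 527 TPM at day 3. Their levels did not shrink evenly. Prdm14, a repressor of DNA methylation and FGF signalling in naive cells (chromosome 1, 13113457 to 13127163), fell furthest, from 60, 65.0 and 68.7 CPM to 0.0996, 0.0257 and 0.0768 CPM (-9.87 ± 0.23, edgeR adjusted p = 2.3e-17). The orphan receptors Nr5a2 (144, 135 and 131 to 0.697, 0.462 and 0.589 CPM) and Esrrb (923, 919 and 868 to 7.30, 7.19 and 7.81 CPM) fell too (-7.88 ± 0.15 and -6.92 ± 0.12). Zfp42 (Rex1), a zinc-finger marker of the naive state, went from 559, 559 and 590 CPM to 5.21, 6.47 and 7.06 CPM (-6.50 ± 0.15, edgeR adjusted p = 1.5e-17). All 3 day 3 libraries lay far below all 3 day 0 libraries for these genes.

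Nanog, the homeobox factor at the centre of the naive network, fell by less than 4-fold. Nanog went from 919, 926 and 1050 CPM to 242, 263 and 241 CPM (-1.95 ± 0.09, edgeR adjusted p = 1.9e-13) and so kept 171 ± 7.9 TPM at day 3, when Klf4 had 1.31 ± 0.39 TPM and Tbx3 0.91 ± 0.062 TPM. By day 5 Nanog stood at 1.22 ± 0.34 CPM in the control libraries. Tfcp2l1, a CP2 factor downstream of LIF and Wnt, kept 32.4, 28.0 and 30.3 of 1050, 927 and 940 CPM. Zscan10 (171, 194 and 175 CPM against 164, 178 and 188 CPM, edgeR adjusted p = 0.79) was not called, and its groups overlapped. Gbx2, a homeobox factor listed here for its role downstream of STAT3 and also a gene of the posterior epiblast, was the 1 member that rose, from 26.1, 30.3 and 10.6 CPM to 165, 142 and 165 CPM (2.81 ± 0.25, edgeR adjusted p = 8e-09).

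Effectors and markers of the naive state moved with the factors: 17 of 19 tested fell, 15 of them by at least 4-fold, with a median of -5.71. Dppa5a, an RNA-binding protein and one of the most abundant transcripts of naive cells, went from 4390 ± 240 to 132 ± 3.9 TPM. Spp1 (osteopontin) went from 432, 534 and 647 CPM to 0.598, 1.13 and 1.18 CPM (-9.07 ± 0.20, edgeR adjusted p = 1.6e-17). Fgf4, the ligand that drives stem cells out of the naive state, went from 250, 262 and 320 CPM to 1.79, 2.05 and 1.84 CPM (-7.18 ± 0.16, edgeR adjusted p = 1.5e-17). The junction protein Jam2, the threonine dehydrogenase Tdh (972, 1090 and 862 to 23.7, 27 and 28.7 CPM) and the oocyte and embryo gene Khdc3 fell as well. Pla2g1b, a secreted phospholipase, was the member that rose (0.71 ± 0.16), and Bmp4 was not called.

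**Figure D2:**
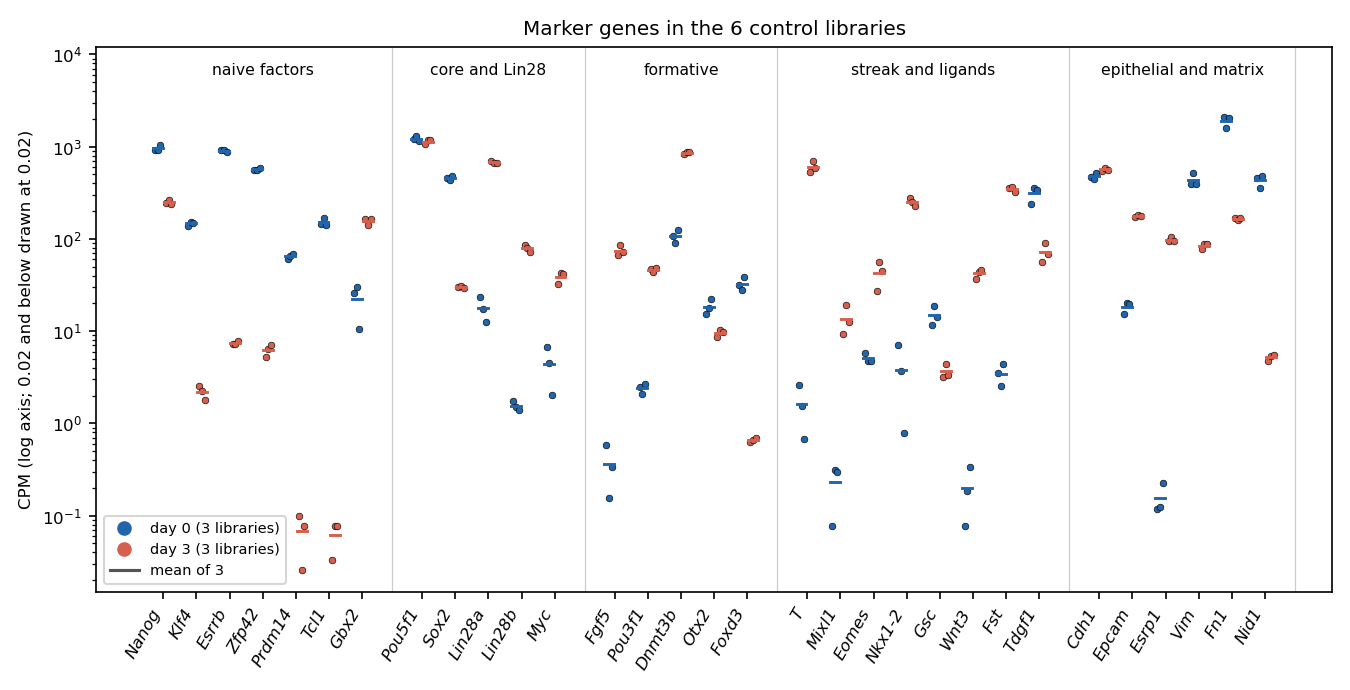
CPM (y axis, log scale) of marker genes in each day 0 (blue) and day 3 (red) control library, with the mean of 3 as a bar and values of 0.02 or below drawn at 0.02. Naive factors other than Gbx2 are lower at day 3, Pou5f1 overlaps between the days, formative and streak genes are higher except Otx2, Foxd3, Gsc and Tdgf1, and Vim, Fn1 and Nid1 are lower while Epcam and Esrp1 are higher.

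LIF receptor and STAT3 genes fell in 12 of 15 cases, 6 of them by at least 4-fold (median -1.56). Lifr, which binds LIF, went from 59.3, 53.2 and 76.0 CPM to 5.84, 5.29 and 6.24 CPM (-3.44 ± 0.15, edgeR adjusted p = 1.7e-13). Stat3, the factor that carries the signal to the nucleus, went from 110, 125 and 128 CPM to 20.8, 19.7 and 19.6 CPM (-2.59 ± 0.09, edgeR adjusted p = 3e-15). The feedback inhibitor Socs3 fell too (-3.04 ± 0.33), from day 0 values of 13.8, 28.2 and 40.7 CPM that were themselves spread out.

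The Pim kinases, targets of STAT3 that promote growth and survival, parted. Pim1 fell from 236, 258 and 229 CPM to 17.9, 18.6 and 18.8 CPM, and Pim3 from 111, 138 and 122 CPM to 22.4, 22.2 and 22.5 CPM. Pim2 (chromosome X, 7878262 to 7883432) rose from 21.7, 18.8 and 27.1 CPM to 1270, 1290 and 1290 CPM (5.84 ± 0.15, edgeR adjusted p = 1.5e-16). Its 985 ± 9.4 TPM at day 3 made it 1 of the 10 genes with the largest rise in TPM of the whole table, and it was back at 9.63 ± 1.3 CPM at day 5.

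Core pluripotency factors split. Pou5f1 had 1200, 1290 and 1150 CPM at day 0 and 1060, 1180 and 1170 CPM at day 3 (-0.09 ± 0.12, edgeR adjusted p = 0.49), so that the ranges overlapped, and it was at 3.19 ± 1.2 CPM by day 5. Sox2, its partner in naive cells, fell (-3.93 ± 0.07) and stood again at 267 ± 3.7 CPM at day 5. The chromatin-associated gene Dppa2 went from 142, 131 and 124 CPM to 2.95, 5.37 and 4.73 CPM (-4.91 ± 0.16, edgeR adjusted p = 3.3e-15). Of the 14 genes of this list 4 rose and 8 fell (3 and 3 by at least 4-fold), with a median of -0.54.

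Lin28a and Lin28b, RNA-binding proteins that block the let-7 microRNAs, were among the 4 that rose. Lin28a (chromosome 4, 134003330 to 134018841) went from 23.6, 17.5 and 12.4 CPM to 695, 671 and 664 CPM (5.25 ± 0.17, edgeR adjusted p = 2.5e-15). Lin28b went from 1.75, 1.5 and 1.39 CPM to 86.1, 78.8 and 71.5 CPM (5.67 ± 0.15, edgeR adjusted p = 9.2e-17). Hmga1 and Hmga2, known let-7 targets, rose by 0.95 ± 0.06 and 0.86 ± 0.10. The let-7 microRNAs themselves are not measured in poly(A) gene tables. Myc, also a let-7 and Wnt target, went from 6.78, 4.52 and 2.02 CPM to 32.6, 43.0 and 41.2 CPM (3.14 ± 0.31, edgeR adjusted p = 3.3e-08), while Mycn fell (-0.69 ± 0.07).

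Formative and primed genes rose in 14 of 19 cases, 11 of them by at least 4-fold, with a median of 2.71. Dnmt3b, a de novo DNA methyltransferase, went from 107, 91.1 and 124 CPM to 825, 871 and 875 CPM (3.00 ± 0.09, edgeR adjusted p = 7.6e-16). Pou3f1 (Oct6), a partner of OTX2 in formative cells, went from 2.46, 2.06 and 2.66 CPM to 47.3, 43.4 and 47.7 CPM (4.28 ± 0.16, edgeR adjusted p = 2.2e-14). The high-mobility-group genes Sox11 (1.05, 0.405 and 1.09 to 161, 148 and 145 CPM), Sox3 and Lef1 (4.68, 2.90 and 1.46 to 172, 174 and 183 CPM) rose by 7.52 ± 0.14, 6.07 ± 0.16 and 5.88 ± 0.18. The groups were far apart for each of them.

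The other 5 members of the formative list fell. Otx2, a homeobox gene of the formative and anterior epiblast, went from 15.4, 17.6 and 22.3 CPM to 8.53, 10.2 and 9.78 CPM (-0.95 ± 0.20, edgeR adjusted p = 0.00029). Foxd3, a forkhead factor of the exit from the naive state, went from 31.6, 27.7 and 38.4 CPM to 0.631, 0.668 and 0.691 CPM (-5.60 ± 0.18, edgeR adjusted p = 2.7e-15). Etv4, Etv5 and Tcf15 fell by 1.06 ± 0.12, 1.41 ± 0.09 and 1.20 ± 0.21. Levels between day 0 and day 3 were not measured.

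Primitive streak factors rose in 10 of 13 tested cases, 7 of them by at least 4-fold, with a median of 3.06. Beside T, the homeobox gene Mixl1 went from 0.078, 0.312 and 0.300 CPM to 9.30, 19 and 12.5 CPM (5.83 ± 0.41, edgeR adjusted p = 2e-10). Eomes, the T-box factor of the early streak and of endoderm, went from 5.85, 4.77 and 4.75 CPM to 27.1, 55.7 and 45.1 CPM (3.06 ± 0.28, edgeR adjusted p = 1.1e-08). Foxa2, of the anterior streak, went from 0.117, 0.187 and 0.0374 CPM to 17.9, 20.6 and 16.5 CPM (7.23 ± 0.29, edgeR adjusted p = 6.7e-14). Day 3 library 1 was the lowest and library 2 the highest of its group for T, Mixl1 and Eomes alike. In TPM the streak genes were far from equal at day 3: T had 599 ± 79 TPM, Eomes 17.9 ± 5.9 TPM and Mixl1 8.90 ± 3.2 TPM.

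Not all streak genes moved this way. Gsc, of the organiser, fell from 11.6, 18.6 and 14.1 CPM to 3.19, 4.42 and 3.35 CPM (-2.01 ± 0.21, edgeR adjusted p = 9.3e-08). Tbx6, which commits streak cells to paraxial mesoderm, had 0.507, 0.530 and 0.487 CPM at day 0 and 0.764, 0.565 and 0.717 CPM at day 3 (edgeR adjusted p = 0.36). Mesp1, of nascent mesoderm, summed to 6 counts over 3 libraries at either day, Hand1 to 13 and 10, and Msgn1 had 1 count in all. The streak-like label was thus met in part: T, Mixl1, Eomes, Evx1, Wnt3 and Fgf8 rose, Gsc and, among the ligands and coreceptors below, Nodal and Tdgf1 fell, Wnt3a was not called, and Mesp1, Msgn1 and Tbx6, of mesoderm that leaves the streak, were near 0 at both days.

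Among ligands and antagonists of the streak, 11 of 24 tested rose (9 by at least 4-fold) and 7 fell (6 by at least 4-fold), with a median of 0.38. Wnt8a, a ligand of the posterior epiblast, went from 0.039, 0.0312 and 0.187 CPM to 227, 227 and 240 CPM (11.38 ± 0.22, edgeR adjusted p = 2.2e-18). Wnt3, which induces the streak, went from 0.078, 0.187 and 0.337 CPM to 37.1, 43.5 and 46.5 CPM (7.69 ± 0.21, edgeR adjusted p = 2.1e-16). Wnt3a, which acts in the later streak and tailbud, had 0.312, 0.810 and 0.824 CPM at day 0 and 0.730, 1.05 and 0.717 CPM at day 3 (edgeR adjusted p = 0.39), so the groups overlapped. Fst (follistatin), which binds activin, went from 3.47, 2.52 and 4.38 CPM to 352, 369 and 324 CPM (6.67 ± 0.14, edgeR adjusted p = 6.7e-18). Nodal, the TGF-beta ligand that patterns the streak, fell (-0.80 ± 0.10), from 125, 114 and 141 CPM to 65.4, 79.8 and 72.8 CPM. Its coreceptor Tdgf1 (Cripto) went from 239, 356 and 335 CPM to 56.1, 89.1 and 68.0 CPM (-2.12 ± 0.18, edgeR adjusted p = 5.1e-09).

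Posterior and tailbud progenitor genes had a median of 4.29, with 11 of 14 tested higher, 10 of them by at least 4-fold. Nkx1-2, a homeobox gene of the progenitors beside the streak, went from 6.98, 3.68 and 0.786 CPM to 276, 250 and 226 CPM (6.05 ± 0.38, edgeR adjusted p = 3.5e-11). Cdx2, of the posterior body axis, went from 3.43, 1.81 and 0.412 CPM to 50.2, 46.7 and 47.3 CPM (4.68 ± 0.33, edgeR adjusted p = 1.9e-10). Vrtn, linked to the number of vertebrae, went from 0.974, 0.592 and 0.225 CPM to 143, 160 and 155 CPM, and the hormone-responsive gene Greb1 from 0.156, 0.0935 and 0.187 CPM to 55.0, 46.7 and 49.9 CPM. The retinoic acid hydroxylase Cyp26a1, of the tailbud, stayed under 0.3 CPM in all 6 libraries.

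**Figure D3:**
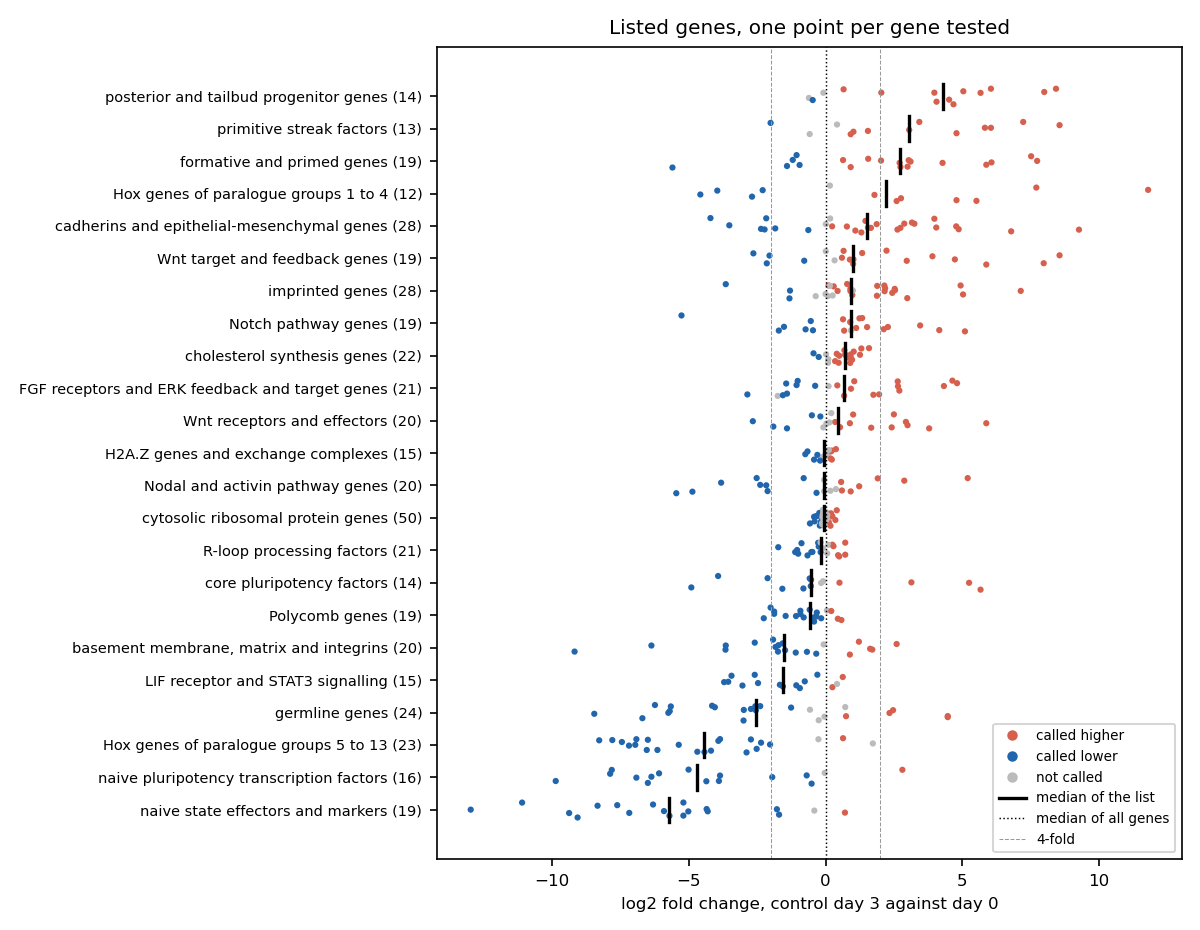
Log2 fold change of control day 3 against day 0 (x axis) for each gene tested in 23 of the 54 lists (rows, number of genes in brackets), red where called higher, blue where called lower and grey where not called. The black bar is the median of the list, the dotted line the median of all genes and the dashed lines 4-fold. Posterior, streak and formative genes lie mostly to the right, and naive factors, naive effectors and Hox genes of groups 5 to 13 mostly to the left.

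Genes of tissues that form later moved in both directions. Presomitic and segmentation genes rose in 8 and fell in 7 of 18 cases (5 and 3 by at least 4-fold, median 0.04). Lateral and cardiac mesoderm genes rose in 5 and fell in 5 of 16 (3 and 2 by at least 4-fold, median 0.23). Definitive endoderm and node genes rose in 5 and fell in 5 of 14 (3 and 2 by at least 4-fold). The median of the last list was -0.82, but 0.50 with a filter of 1 CPM and 1.61 and 0.82 on TPM, where 8 or 9 members were tested, and its summed level went from 36.2 to 43.1 TPM at day 0 to 188 to 234 TPM at day 3, mostly by Trh. Dll1, the Notch ligand of presomitic mesoderm and neural progenitors, rose from 0.351, 0.343 and 0.150 CPM to 12.6, 8.09 and 9.16 CPM (5.10 ± 0.25, edgeR adjusted p = 1.4e-12). Pcdh8, a protocadherin of presomitic mesoderm, rose by 5.33 ± 0.15 to 9.93, 12 and 11.3 CPM. Trh, the precursor of thyrotropin-releasing hormone, went from 12.4, 10.6 and 3.37 CPM to 136, 161 and 180 CPM (4.17 ± 0.31, edgeR adjusted p = 5.2e-10). Sox17, which defines endoderm, had 0.312, 0.343 and 0.636 CPM at day 0 and 0.166, 0.103 and 0.205 CPM at day 3, and the chemokine receptor Cxcr4 fell (-1.16 ± 0.30).

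Neural plate and forebrain genes fell in 10 and rose in 8 of 21 cases (9 and 6 by at least 4-fold, median -0.78). Pax6, of the neural tube, went from 4.95, 4.36 and 7.68 CPM to 0.498, 0.514 and 0.665 CPM (-3.31 ± 0.22, edgeR adjusted p = 1.2e-10), and Sox21 from 74.3, 62.5 and 95.2 CPM to 0.996, 0.770 and 0.742 CPM. Sox1, of the early neural plate, rose by 0.75 ± 0.25 to 17.2, 9.30 and 12 CPM, which did not exceed the highest day 0 library (9.36 CPM) in every case. Tubb3, a tubulin of neurons that stem cells also transcribe, went from 120, 131 and 121 CPM to 8.23, 7.60 and 8.93 CPM (-3.91 ± 0.11, edgeR adjusted p = 2.1e-16). At day 5 Pax6 and Sox1 stood at 262 and 236 CPM.

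Hox genes, which set position along the body axis, rose in part at the low end of the paralogue groups and mostly fell from group 4 upward. Of 12 in groups 1 to 4, 7 rose and 4 fell (6 and 4 by at least 4-fold, median 2.20). Hoxb1 (chromosome 11, 96365752 to 96368256) had no counts at day 0 and 14.1, 13.4 and 15.2 CPM at day 3, at least 122-fold higher against a floor of 3 counts per library. Hoxb2 reached 9.50, 6.96 and 8.47 CPM and Hoxa3 6.81, 4.44 and 5.55 CPM. The 4 that fell were Hoxd3 (-2.30 ± 0.72) and 3 of group 4, Hoxb4 (2.30, 2.74 and 3.33 to 0.0996, 0.257 and 0.154 CPM), Hoxc4 (4.64, 4.98 and 5.88 to 0.0996, 0.154 and 0.358 CPM) and Hoxd4 (-2.69 ± 0.39).

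Of 23 tested in groups 5 to 13, 20 fell by at least 4-fold, 1 rose (Hoxa5, 0.64 ± 0.28) and 2 were not called, with a median of -4.43. The filter ran over all 18 libraries, so genes could pass it through day 5 or Dox groups. In the 6 libraries alone 14 were tested and 13 fell by at least 4-fold (median -6.34). On log2(TPM + 1) 8 were tested and 8 fell, 4 of them by at least 4-fold (median -1.86). No member was called higher in these fits or with limma-voom, so the rise of Hoxa5 is uncertain. Day 0 levels of genes in groups 5 to 13 were low but not nil. Hoxc13 went from 22.3, 23.8 and 24.7 CPM to 0.299, 0.180 and 0.282 CPM (-6.54 ± 0.20, edgeR adjusted p = 8.7e-16). Hoxb9 went from 16.9, 22.3 and 13.8 CPM to 0.0996, 0.128 and 0.179 CPM (-6.96 ± 0.29, edgeR adjusted p = 1.2e-13), and stood at 245 CPM in the day 5 control libraries. Hoxd9 went from 6.47, 7.16 and 7.94 CPM to 0, 0.077 and 0.0768 CPM and was at 0.157 CPM at day 5. Day 3 therefore held the lowest level of the 3 days for Hoxb9, while the day 0 levels of Hoxc13 were not seen again.

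**Figure D4:**
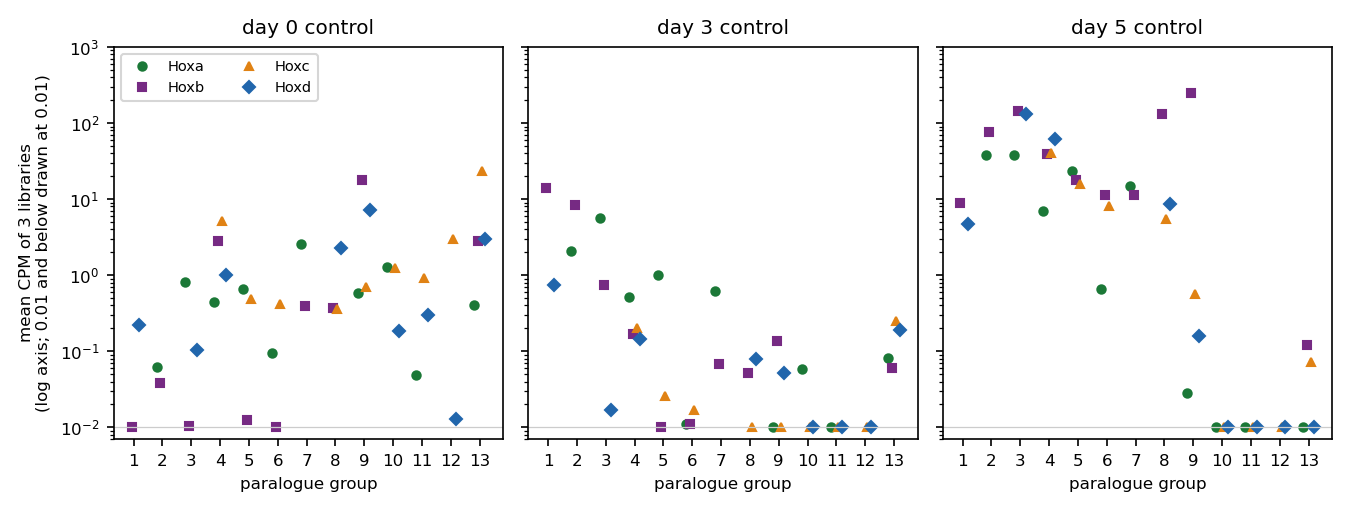
Mean CPM of 3 control libraries (y axis, log scale, values of 0.01 or below drawn at 0.01) for Hox genes by paralogue group (x axis) and cluster (marker shape) at day 0, day 3 and day 5. At day 3 the genes above 1 CPM belong to groups 1 to 3 (with Hoxa5 at about 1 CPM), whereas at day 0 Hoxc13 and Hoxb9 are the highest.

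Wnt receptors and effectors rose in 11 of 20 cases and fell in 5 (6 and 1 by at least 4-fold, median 0.44). Wnt target and feedback genes rose in 13 of 19 and fell in 4 (7 and 3 by at least 4-fold, median 1.01). Nkd1, an inhibitor induced by the pathway, went from 2.10, 1.99 and 1.87 CPM to 52.2, 52.1 and 54.5 CPM (4.73 ± 0.10, edgeR adjusted p = 4.3e-18). Axin2, the standard target, went from 77.8, 65.2 and 36.9 CPM to 114, 121 and 128 CPM (1.01 ± 0.24, edgeR adjusted p = 0.0011). Sp5, a direct target and repressor, went from 45.7, 41.1 and 11.1 CPM to 61.8, 65.3 and 72.1 CPM (1.02 ± 0.37, edgeR adjusted p = 0.018). Tcf7l1, the repressor of the TCF family, fell from 271, 256 and 294 CPM to 64.6, 72.6 and 81.5 CPM (-1.91 ± 0.07), Lef1 rose as given above, and Ctnnb1 (beta-catenin) fell by 0.19 ± 0.05. The Wnt deacylase Notum fell (-2.05 ± 0.11), from 93.5, 86.4 and 74.2 CPM to 23.9, 18.1 and 19.5 CPM.

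Library 3 of day 0 was the lowest of its group for Axin2, Sp5, Lef1 and T. It was the lowest for 14 of the 19 Wnt targets (73.7%) and 9 of the 14 posterior genes (64.3%), against 5 of the 16 naive factors (31.2%) and 34.1% of 13250 genes with at least 1 CPM at day 0. Without this library 12 Wnt targets rose and 4 fell, with a median of 0.73, and 11 posterior genes rose with a median of 4.04. What set this library apart was not tested.

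FGF receptors and ERK feedback and target genes rose in 12 of 21 cases, 6 by at least 4-fold, and fell in 7 (median 0.68). Spry4, a feedback inhibitor of ERK signalling, went from 1.36, 1.21 and 1.31 CPM to 22.0, 29.9 and 26.4 CPM (4.33 ± 0.18, edgeR adjusted p = 1e-13). Dusp4, an ERK phosphatase, went from 2.42, 1.25 and 1.61 CPM to 52.4, 48.1 and 45.5 CPM (4.81 ± 0.20, edgeR adjusted p = 1.4e-13). Dusp6 went from 19.5, 17.4 and 15.3 CPM to 103, 117 and 106 CPM and Il17rd (Sef) from 41.8, 33.2 and 26.4 CPM to 222, 223 and 212 CPM. The ETS genes Etv4 and Etv5, also induced by FGF, fell. Egr1, an immediate early gene, had 26.8, 85.3 and 0.225 CPM at day 0 and 10.0, 11.6 and 12 CPM at day 3 (edgeR adjusted p = 0.13), the widest spread among day 0 libraries of any gene with a mean of at least 20 CPM there.

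Nodal and activin genes rose in 7 and fell in 9 of 20 cases (median -0.05), 7 of the latter by at least 4-fold. Beside Nodal and Tdgf1, the ligand Gdf3 (138, 147 and 140 to 3.05, 3.18 and 3.38 CPM), the processing protease Pcsk6 (-3.82 ± 0.10) and the inhibitor Lefty2 (179, 113 and 53.3 to 16.2, 22.9 and 20.9 CPM) fell. Lefty1, the other inhibitor, rose from 57.9, 28.4 and 26.2 CPM to 82.6, 89.6 and 90.5 CPM (1.23 ± 0.24, edgeR adjusted p = 0.00018).

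BMP genes were evenly divided (7 higher and 6 lower of 16, 3 and 3 by at least 4-fold, median 0.04). Id3, an inhibitor of bHLH factors, rose by 2.16 ± 0.29 to 32.1, 30.0 and 28.0 CPM, and its relative Id4 fell from 31.7, 35.3 and 27.3 CPM to 1.08 to 1.73 CPM (-4.51 ± 0.16, edgeR adjusted p = 1.1e-14). Notch genes rose in 12 and fell in 6 of 19 cases (5 and 1 by at least 4-fold, median 0.93). Among the receptors Notch3 rose (2.13 ± 0.12) to 211, 204 and 205 CPM, while Notch1 (-1.71 ± 0.10) and Notch4 (-5.27 ± 0.21) fell. Of 13 Hedgehog genes 6 rose and 3 fell (3 and 1 by at least 4-fold, median 0.25). The transducer Smo (20.5, 18.4 and 23.0 to 140, 128 and 132 CPM) and the target Gli1 (2.96, 3.08 and 3.03 to 32.2, 29.5 and 29.6 CPM) were among those higher. No Hedgehog ligand reached 0.5 CPM in any of the 6 libraries. Retinoic acid genes rose in 7 and fell in 4 of 17 cases (5 and 3 by at least 4-fold, median 0.03). The synthesis enzymes Aldh1a2 (4.68, 4.36 and 4.75 to 0.166, 0.103 and 0.282 CPM) and Aldh1a3 were among those lower.

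Eph receptors and ephrins, which sort cells by contact, rose in 12 and fell in 5 of 20 cases (7 and 1 by at least 4-fold, median 1.48). With library size alone 12 rose and 2 fell (median 1.63), and on TPM 8 rose and 2 fell of 16 (medians of 0.55 and 0.49 with pseudocounts of 0.1 and 1). Epha1 (chromosome 6, 42358487 to 42373268) went from 0.0780, 0.0935 and 0.112 CPM to 162, 181 and 166 CPM (10.75 ± 0.18, edgeR adjusted p = 5.1e-19), while Epha2 had 185, 144 and 170 CPM at day 0 and 142, 164 and 155 CPM at day 3 (edgeR adjusted p = 0.19). The ligands Efnb1 (6.94, 6.14 and 6.55 to 102, 75.9 and 86.0 CPM) and Efnb2 (7.64, 4.67 and 7.30 to 78.3, 62.0 and 69.5 CPM) rose by 3.75 ± 0.12 and 3.43 ± 0.15.

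Of 28 cadherin and epithelial-mesenchymal genes, a list that holds markers of both states, 19 rose, 11 by at least 4-fold, and 7 fell (median 1.51). Their summed level went from 1180 to 1250 TPM at day 0 to 798 to 843 TPM at day 3, since Fn1 and Vim, the most abundant members at day 0, fell. Cdh1 (E-cadherin) stayed the most abundant classical cadherin, at 144 ± 18 TPM at day 0 and 188 ± 3.5 TPM at day 3, with a small rise in the count model (0.24 ± 0.07, edgeR adjusted p = 0.0061). Cdh2 (N-cadherin) rose from 7.25, 4.49 and 4.79 CPM to 41.9, 34.1 and 33.4 CPM (2.74 ± 0.17, edgeR adjusted p = 2.4e-11) but had 13 ± 1.9 TPM at day 3. Epcam, of epithelial adhesion, went from 15.3, 20.1 and 19.7 CPM to 171, 179 and 175 CPM (3.25 ± 0.12, edgeR adjusted p = 8.8e-15). Esrp1, which sets epithelial splicing (chromosome 4, 11331933 to 11386783), went from 0.117, 0.125 and 0.225 CPM to 94.3, 104 and 94.4 CPM (9.27 ± 0.16, edgeR adjusted p = 5.1e-19), and its relative Esrp2 fell (-2.23 ± 0.16). Claudins were exchanged too, with Cldn6 (4.05 ± 0.21) and Cldn7 (4.87 ± 0.34) higher and Cldn4 lower (63.5, 81.8 and 86.2 to 4.15, 4.03 and 4.35 CPM).

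Members used as mesenchymal markers went both ways. Vim (vimentin) fell from 396, 516 and 390 CPM to 77.8, 86.9 and 88.8 CPM (-2.36 ± 0.12, edgeR adjusted p = 1.3e-12), and Fn1 (fibronectin) from 2080, 1570 and 2040 CPM to 169, 161 and 167 CPM (-3.52 ± 0.11, edgeR adjusted p = 8.5e-16). Of the repressors of Cdh1, Snai1 rose by 1.55 ± 0.18 to 5.45, 6.73 and 5.86 CPM, Snai2 fell, Zeb1 fell from 35.1, 30.3 and 38 CPM to 8.53, 6.68 and 7.75 CPM (-2.17 ± 0.12), and Zeb2 rose from 0.351, 0.125 and 0.337 CPM to 32.5, 27.9 and 27.9 CPM (6.79 ± 0.22). At day 5 Cdh1 and Epcam were at 5.84 and 2.55 CPM and Cdh2 and Vim at 415 and 375 CPM.

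Matrix, basement membrane and integrin genes fell in 14 of 20 cases, 5 by at least 4-fold, and rose in 5 (median -1.53). Nid1 (nidogen, chromosome 13, 13437551 to 13512269) went from 460, 360 and 485 CPM to 4.78, 5.37 and 5.55 CPM (-6.37 ± 0.14, edgeR adjusted p = 1.4e-17). The integrin subunit Itgb3, of fibronectin and osteopontin receptors, fell from 25.7, 23.6 and 22.1 CPM to 0.0664, 0.0514 and 0 CPM (-9.18 ± 0.27, edgeR adjusted p = 7.4e-16). Laminin subunits were exchanged: Lama1 fell from 92.6, 104 and 88.9 CPM to 8.27, 6.86 and 7.68 CPM (-3.65 ± 0.13), whereas Lama5 rose from 224, 189 and 318 CPM to 795, 778 and 823 CPM (1.71 ± 0.15, edgeR adjusted p = 4.1e-09) and Lamb1 rose by 2.60 ± 0.10.

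DNA methylation enzymes turned over. Of 13 genes 5 rose and 7 fell (2 and 3 by at least 4-fold, median -0.32). Dnmt3a rose from 35.8, 25.6 and 27.3 CPM to 122, 121 and 118 CPM (2.03 ± 0.11) beside Dnmt3b, and Dnmt1, which copies methylation at replication, fell by 0.33 ± 0.04. The TET oxidases, which start demethylation, were exchanged: Tet1 (449, 366 and 426 to 151, 134 and 124 CPM) and Tet2 (188, 123 and 222 to 10.3, 8.76 and 7.96 CPM) fell by 1.6 ± 0.16 and 4.31 ± 0.18, and Tet3 rose from 19.7, 15.3 and 19.3 CPM to 64.1, 55.6 and 57.9 CPM (1.71 ± 0.13). Zfp57, which guards methylation of imprinted regions, fell from 465, 460 and 522 CPM to 33.7, 30.9 and 34.8 CPM (-3.86 ± 0.07, edgeR adjusted p = 2e-18).

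Imprinted genes rose in 19 of 28 cases, 10 by at least 4-fold, and fell in 3 (median 0.94). Magel2 went from 0.390, 0.498 and 0.0749 CPM to 46.3, 47.0 and 48.2 CPM (7.14 ± 0.22, edgeR adjusted p = 1.1e-15), and its neighbours in the Prader-Willi region, Ndn and Snrpn (99.9, 121 and 143 to 618, 673 and 688 CPM), rose by 2.53 ± 0.13 and 2.44 ± 0.15. Peg3, a zinc-finger gene, went from 105, 78.8 and 103 CPM to 442, 429 and 411 CPM (2.16 ± 0.10). Plagl1, a zinc-finger regulator of other imprinted genes, fell from 316, 285 and 377 CPM to 21.8, 26.9 and 28.6 CPM (-3.65 ± 0.10, edgeR adjusted p = 3.2e-16). The tables do not tell the parental alleles apart.

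Germline genes fell in 15 of 24 cases, 14 by at least 4-fold, and rose in 5 (median -2.56). Dazl, an RNA-binding protein of germ cells, went from 27.8, 26.6 and 25.8 CPM to 0.332, 0.514 and 0.691 CPM (-5.66 ± 0.20, edgeR adjusted p = 7.9e-15), and Rpl10l, the germline copy of a ribosomal protein, from 127, 165 and 156 CPM to 0.863, 1.87 and 1.46 CPM (-6.70 ± 0.17). Tdrkh, a Tudor protein of the piRNA pathway, rose from 0.780, 0.748 and 0.524 CPM to 17.8, 13.7 and 14.4 CPM (4.47 ± 0.16, edgeR adjusted p = 1.6e-14).

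Polycomb genes fell in 15 of 19 cases and rose in 3 (2 and 0 by at least 4-fold, median -0.58). Among the core subunits of the H3K27 methyltransferase, Suz12 fell from 494, 463 and 436 CPM to 130, 129 and 121 CPM (-1.88 ± 0.06, edgeR adjusted p = 5.6e-15) and Eed fell by 1.46 ± 0.07, whereas the catalytic Ezh2 fell by 0.32 ± 0.07 (177, 203 and 166 to 151, 141 and 146 CPM). The accessory subunit Mtf2 fell by 1.88 ± 0.07, from 428, 384 and 434 CPM to 116, 118 and 105 CPM.

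The study concerns R-loops, which are RNA:DNA hybrids with a displaced DNA strand, and H2A.Z. Of 15 H2A.Z genes and exchange factors 5 rose and 5 fell, none by 4-fold (median -0.04, and 7 and 3 with library size alone). H2afz, which encodes the main H2A.Z isoform, had 621, 730 and 673 CPM at day 0 and 739, 727 and 685 CPM at day 3 (0.09 ± 0.07, edgeR adjusted p = 0.26), and the exchange ATPase gene Srcap fell by 0.66 ± 0.17. R-loop processing factors rose in 6 and fell in 11 of 21 cases, none by 4-fold (median -0.18, and 7 and 8 with library size alone). The native and knock-in Rnaseh1 transcripts, which the tables do not separate, summed to 25.8, 30.3 and 28.7 CPM at day 0 and 22.2, 24.0 and 24.1 CPM at day 3. The helicase gene Fancm fell most, from 169, 137 and 152 CPM to 46.5, 47.4 and 43.7 CPM (-1.73 ± 0.13, edgeR adjusted p = 3.4e-10).

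Some glycolysis genes exchanged isoforms. Of 25 genes 14 rose and 9 fell (3 and 3 by at least 4-fold, median 0.29). At 4-fold this list lay near the 11.8% and 11.5% of all genes and did not stand out. Their share of all TPM went from 1.65 ± 0.065% to 2.03 ± 0.038% with no overlap between libraries. Ldha, which makes lactate, rose from 456, 423 and 320 CPM to 1560, 1740 and 1650 CPM (2.05 ± 0.11, edgeR adjusted p = 3.7e-12), while Ldhb fell from 433, 513 and 445 CPM to 114, 127 and 126 CPM (-1.92 ± 0.08, edgeR adjusted p = 9.7e-14). Among phosphofructokinases Pfkl rose (141, 138 and 127 to 439, 443 and 446 CPM) and Pfkp fell (353, 350 and 332 to 34.8, 34.6 and 34.8 CPM). The lactate exporter Slc16a3 (30.4, 22.5 and 21.0 to 185, 189 and 177 CPM) and Pdk1, which keeps pyruvate out of mitochondria (25.7, 19.7 and 19.7 to 139, 150 and 135 CPM), rose by 2.90 ± 0.14 and 2.71 ± 0.13. The glucose transporter Slc2a3 fell from 1510, 1380 and 1320 CPM to 298, 247 and 242 CPM (-2.42 ± 0.09), and Slc2a1 rose by 0.68 ± 0.09.

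Hypoxia response genes rose in 10 and fell in 5 of 17 cases (4 and 1 by at least 4-fold, median 0.68). Ddit4, an inhibitor of mTORC1 that also answers to ATF4, was at 26.7, 28.5 and 34.8 CPM and then at 471, 418 and 416 CPM (3.86 ± 0.10, edgeR adjusted p = 7.1e-17). Vegfa, another target, fell by 0.51 ± 0.13. Nuclear subunits of the respiratory chain rose in 6 and fell in 10 of 27 cases (0 and 1 by at least 4-fold, median 0.01). With library size alone they rose in 13 and fell in 5, and their share of TPM went from 1.04 ± 0.033% to 0.941 ± 0.013%. Cholesterol synthesis genes rose in 17 of 22 cases and fell in 2, none by 4-fold (median 0.72), among them Lss (65.8, 66.9 and 59.0 to 192, 194 and 190 CPM, 1.59 ± 0.07). Their share of TPM went from 0.121 ± 0.0078% to 0.204 ± 0.0018%, with no overlap.

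Genes of the ATF4 stress response rose in 9 and fell in 4 of 15 cases (5 and 1 by at least 4-fold, median 0.39). The lipoprotein receptor Vldlr went from 1.48, 2.40 and 1.46 CPM to 47.0, 50.1 and 42.8 CPM (4.69 ± 0.28, edgeR adjusted p = 1.7e-11), and Asns, the asparagine synthetase, fell from 728, 844 and 701 CPM to 301, 310 and 297 CPM (-1.32 ± 0.08). Genes of p53 and its targets were evenly divided (7 and 7 of 18, 2 and 0 by at least 4-fold, median 0.24). Pmaip1 (Noxa), which promotes apoptosis, was higher by 3.48 ± 0.18 and Trp53 itself lower by 0.58 ± 0.04. Cytosolic ribosomal protein genes rose in 6 and fell in 10 of 50 cases (median -0.07), and these counts were 19 and 4 with library size alone, so no direction is given for them. Creatine kinase B (Ckb) fell from 1280, 1480 and 1130 CPM to 39.7, 43.7 and 46.2 CPM (-4.91 ± 0.10, edgeR adjusted p = 6.3e-18), and the heat shock protein gene Hsp90aa1 from 3020 ± 130 to 1130 ± 4.8 TPM.

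Cell cycle regulators fell in 18 of 30 cases and rose in 5 (median -0.27), mostly by less than 4-fold. The D-type cyclins, which start the cycle with CDK4 and CDK6, changed their order. Ccnd3 had 345 ± 6.5 TPM at day 0, Ccnd1 26.9 ± 5.8 TPM and Ccnd2 0.490 ± 0.35 TPM. At day 3 the levels were 65.0 ± 3.7, 75.2 ± 3.4 and 47.5 ± 7.9 TPM, so that all 3 lay within a narrow range. In the count model Ccnd3 fell from 473, 523 and 458 CPM to 81.5, 79.9 and 78.7 CPM (-2.60 ± 0.06, edgeR adjusted p = 2.6e-17) and Ccnd2 (chromosome 6, 127125162 to 127152193) rose from 2.34, 0.685 and 0.786 CPM to 239, 185 and 180 CPM (7.35 ± 0.26, edgeR adjusted p = 1.1e-14). Ccnd2 went on to 1860 ± 110 CPM at day 5.

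**Figure D5:**
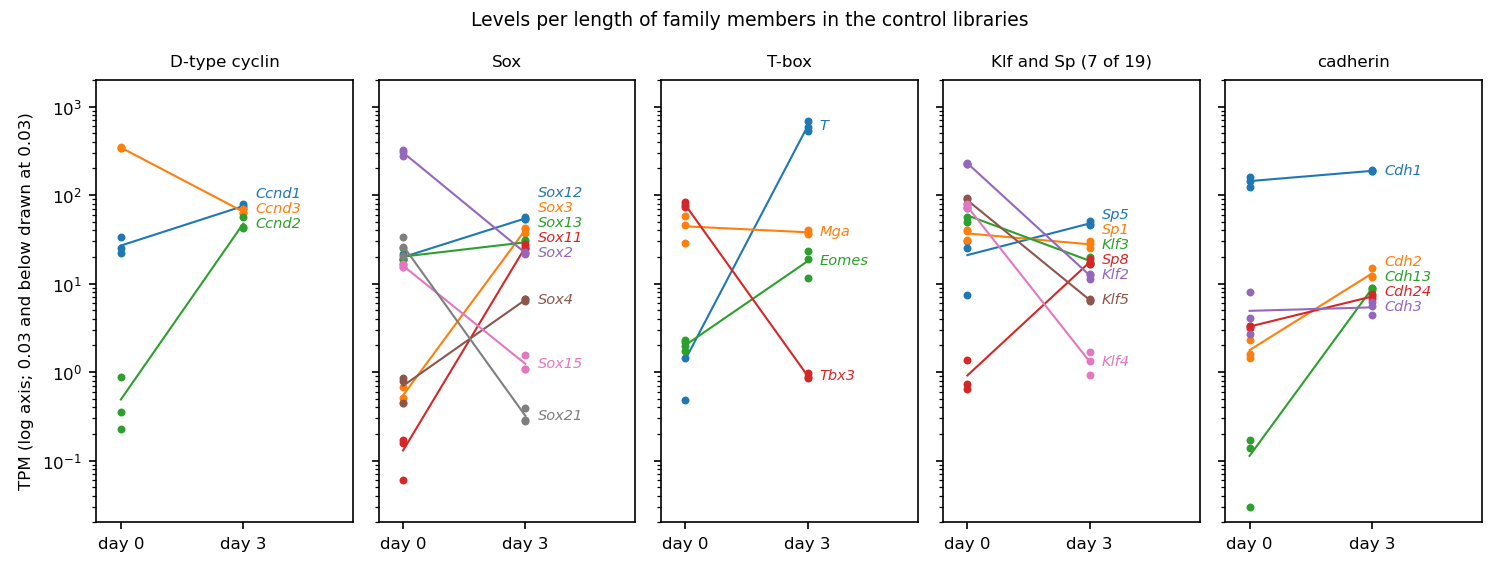
TPM (y axis, log scale, values of 0.03 or below drawn at 0.03) of D-type cyclins, Sox, T-box, Klf and Sp and cadherin genes in each day 0 and day 3 control library, with lines through the means of 3 and names offset where they would overlap. Genes with a mean of at least 5 TPM at either day are shown, and 7 of 19 for Klf and Sp. Sox2 and Ccnd3 lead their families at day 0 and no longer do at day 3, and Cdh1 leads the cadherins at both days.

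Family by family, the leading member was replaced in several cases. Among Sox factors Sox2 led at day 0 with 303 ± 25 TPM, and at day 3 Sox12 (54.6 ± 1.2), Sox3 (40.6 ± 2.8), Sox13 (29.3 ± 2.5) and Sox11 (25.9 ± 1.9 TPM) lay above its 22.2 ± 0.49 TPM. Of 17 Sox genes tested 9 rose and 6 fell (5 and 4 by at least 4-fold, median 0.55). Among T-box genes Tbx3 led at day 0 with 77.7 ± 5.1 TPM and T at day 3. Klf and Sp genes fell in 15 of 22 cases and rose in 5 (median -0.35): Klf2 led at day 0 with 229 ± 3.8 TPM and stood at 12.4 ± 0.84 TPM at day 3, when Sp5 (47.9 ± 3.2 TPM) led. Zic genes, active in the primed epiblast, all rose (4 of 4 tested), Zic2 to 159, 156 and 158 CPM (1.56 ± 0.10).

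Noncoding RNAs, picked after their values were seen, took part as well. Of 528 lincRNA genes tested 18% rose and 29.9% fell by at least 4-fold, against 11.7% and 10.6% of 14733 protein-coding genes. Lncenc1, a lincRNA of naive cells, had 399 to 447 CPM at day 0 and 3.88, 5.37 and 4.56 CPM at day 3 (-6.51 on the log2 scale). Neat1, the scaffold of paraspeckles, fell from 138, 174 and 140 CPM to 22.3, 20 and 23.1 CPM. At the X inactivation centre Tsix fell from 26.8, 28.2 and 23.1 CPM to 7.47, 7.70 and 8.83 CPM and Xist rose from 0.234, 0.125 and 0.225 CPM to 4.05, 4.52 and 4.30 CPM. Both are read from the same stretch on opposite strands, and the strand setting of the counting is not given in the sources used here, so reads of 1 could be counted for the other. Of 653 genes on chromosome X 17.8% rose and 14.1% fell by at least 4-fold, against 11.6% and 11.4% of 17099 autosomal genes.

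Markers of other cells differed in level between lists. Of the fibroblast and feeder list 5 of 10 genes tested rose and 1 fell (median 1.88), and the summed level of the 12 genes was 2.36 to 2.83 TPM at day 0 and 13.3 to 14.7 TPM at day 3, with Postn at 0 in all 6 libraries. Thy1, which many cell types carry, gave most of the day 3 sum (0.563 ± 0.11 and 8.26 ± 0.88 TPM). Blood and endothelial genes summed to 8.33 to 17 TPM at day 0 and 5.08 to 6.38 TPM at day 3, and Ptprc, Emcn and the beta globins Hbb-bs, Hbb-bt, Hbb-y and Hbb-bh1 were at 0 in all 6 libraries. Vwf carried much of the day 0 value and fell from 23.9, 30.8 and 36.5 CPM to 0.0664, 0.128 and 0.0512 CPM. Trophoblast genes fell in 7 and rose in 2 of 11 cases (median -1.06), their sum going from 74.6 to 88.3 TPM at day 0 to 25.8 to 27.3 TPM at day 3. Tfap2c (34.8 ± 2.3 TPM at day 0) and Ets2 (22.1 ± 2.5 TPM), which stem cells also transcribe, gave most of it, and Elf5, Tpbpa and Prl3d1 were at 0. Extraembryonic endoderm genes rose in 6 and fell in 6 of 15 (median -0.33), and their sum went from 311 to 388 TPM at day 0 to 130 to 138 TPM at day 3. The matrix genes Sparc (189 ± 25 TPM at day 0) and Lamc1 (110 ± 8.4 TPM) gave most of the day 0 sum, while Gata6 stayed under 1 CPM, Gata4 under 3.5 CPM and Ttr at 0. Among 19 genes of the 2-cell-like state, a rare state of stem cells, 2 passed the filter on low counts, and both rose (Zscan4c 5.05 ± 1.39, Zscan4f 2.05 ± 0.88), to levels under 1.5 CPM. Zscan4f was not called with DESeq2 (adjusted p = 0.094), without day 0 replicate 2 or 3 (edgeR adjusted p = 0.17 and 0.14) or without day 3 replicate 1 or 3 (edgeR adjusted p = 0.066 and 0.22). The part of such cells in the changes described here was not tested.

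Most genes with large changes in the control course changed in the same direction in the Dox libraries. Of the 2094 genes at least 4-fold higher in the control course 2026 were called higher in the Dox course, 1815 of them by at least 4-fold, and of the 2040 genes lower 2012 were called lower, 1891 by at least 4-fold, and 0 went the opposite way. These genes were picked by their size in the control course, so fewer at 4-fold in the Dox course do not show a weaker course. The shares of all genes called in the Dox course are not given here. The difference between the courses was called for 10 genes (0.0562% of those tested), 3 with a higher and 7 with a lower log2 change in the control course. The unadjusted p was under 0.05 for 1433 genes. With 3 libraries per group, a gene not called is not thereby shown to take the same course. The count was 117 by DESeq2, 25 by limma-voom and 35 by edgeR once a replicate block was fitted. Without 1 control library the count was 52 (day 0 replicate 3), 12 and 13 (day 0 replicates 1 and 2) or 6, 4 and 3 (day 3 replicates 1, 2 and 3), so it turns on single libraries. Eif4g3, a translation initiation factor, went from 52.3, 46.6 and 53.1 CPM to 209, 211 and 216 CPM in the controls (2.07 ± 0.06, edgeR adjusted p = 1.4e-15) and from 74.1 to 209 CPM in the Dox libraries on average.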

How the data were processed

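Poly(A) RNA of 18 samples was measured by stranded RNA-seq, and the 3 control samples of day 0 and the 3 of day 3 are compared. The authors deposited 1 gene table per sample with RSEM expected counts and TPM (and FPKM, not used here). Per the submitters' processing notes, Trimmomatic, STAR 2.7.10a, RSEM 1.3.3, DESeq2 1.38.2 and the GRCm38 build were used, with their roles not described. The annotation release and the strand setting of the counting are not given in the sources used here. Of 55401 gene IDs 55141 matched the GRCm38 annotation by ID without version, and 260 with 0.0053% of the counts did not.

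Expected counts as deposited, 6.87 to 7.49% of them not whole, were rounded and tested with edgeR 4.0.16 (R 4.3.3, TMM factors, filterByExpr, quasi-likelihood test) in 1 fit of all 18 libraries with 6 group means, which left 12 residual degrees of freedom, a common biological coefficient of variation of 0.09 and 17795 genes. P-values were adjusted by Benjamini-Hochberg over all of these genes. The depth of 27654553 to 38128366 counts makes 3 counts about 0.1 CPM, and a fold against a group with no counts uses this floor. TPM as deposited by the authors were used for levels of different genes and for shares of lists. The steps were tested on simulated data in which few genes changed and all groups had the same spread. That test does not cover a shift of most genes or the wider day 0 spread seen here.

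The members and the 54 gene lists (839 listed genes tested) were chosen with earlier results of these data known. Genes were named by rule: preset markers, the 15 largest called changes each way at 10 CPM or more, up to 6 called members of each list at 5 CPM or more, the 10 largest rises and falls in TPM, the 8 widest day 0 spreads, families at 5 TPM or more, and the 5 genes with the smallest adjusted p between the control and the Dox course. Other genes named were chosen after their values were seen. Some genes that these rules take are not reported here. The labels give the replicate number as a batch, so it pairs samples of different days. The deviations of same-numbered samples correlated with r of 0.008, 0.017 and -0.036 across genes, those of other pairs with -0.047 to 0.037. Alternatives were a replicate block, DESeq2 1.42.0, limma-voom (limma 3.58.1), RLE factors, library size alone, other filters, the 6 libraries alone, limma on log2(TPM + 0.1) and log2(TPM + 1), and leaving out each library.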

Additional observations from a re-analysis of the deposited data

Results flagged for a closer look

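For 4 genes the log2 change from day 0 to day 3 differed between the control course and the Dox course by an interaction test in edgeR over all genes (10 called, these 4 among the 5 with the smallest adjusted p). Values are the control change minus the Dox change on the log2 scale. Hprt, an enzyme of purine salvage, differed by 2.61: it went from 11.6, 13.2 and 12.3 CPM to 20.5, 20.6 and 19 CPM in the controls and from a mean of 333 to 88.3 CPM in the Dox libraries. Rnaseh1 differed by 0.89, with means of 153 and 68.1 CPM in the Dox libraries of day 0 and day 3 against 28.3 and 23.5 CPM in the controls. Slc44a5, a choline transporter-like gene, differed by -3.00, the Dox mean going from 0.192 to 2.43 CPM and the controls from 1.4, 1.59 and 0.973 CPM to 1.96, 2.05 and 2.12 CPM. Eif4g3 differed by 0.57 (Dox means of 74.1 and 209 CPM). In all 4 genes the mean control and Dox levels lay further apart at day 0 than at day 3.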

How the results depend on the processing

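The counts of genes higher and lower between the control days stayed within 1.5 times under every alternative run, and those at 4-fold under all but the ones on TPM. Leaving out 1 library gave 6382 to 6549 genes higher and 6282 to 6403 lower, and by at least 4-fold 2081 to 2219 higher and 2081 to 2174 lower. With the replicate block 6695 genes rose and 6519 fell, 2099 and 2035 by at least 4-fold. Library size alone gave 7726 higher and 5473 lower. A fit of the 6 control libraries alone gave 6039 higher and 5906 lower of 16458 genes tested, 1783 and 1816 by at least 4-fold. On TPM, 4-fold calls fell to 1246 higher with a pseudocount of 0.1 and to 516 higher and 787 lower with 1. A pseudocount shrinks the change of low genes, but the filter (14832 genes tested), the scaling and the test differed as well. The part of each was not tested. The difference between the control and the Dox course was called for 117 genes with DESeq2, 25 with limma-voom, 203 without a filter, 35 with the replicate block and 3 to 52 without 1 library, and the cause was not tested. The cholesterol genes' share of TPM rose by 0.083 percentage points, and by 0.091 once mitochondrial and rRNA genes were left out. Of 5312 pairs of a named gene and an alternative, 5252 kept direction and call, 48 lost the call, 12 gained it and 0 changed direction. The replicate block changed no direction. Medians of 12 of the 54 lists took the other sign in at least 1 of the alternatives. The 2-cell-like list had no gene left under 3 alternatives. Levels under about 0.1 CPM are at the limit of the depth.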

Other observations

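Neuron genes rose in 9 and fell in 5 of 16 cases (6 and 2 by at least 4-fold, median 1.11). Their summed level nonetheless fell, from 192 to 210 TPM at day 0 to 75.4 to 78.2 TPM at day 3. Neural crest genes rose in 5 and fell in 6 of 13 (5 and 3 by at least 4-fold). Their median was 1.27, and -1.31 under the alternative with the lowest value. The neural crest sum fell too, from 54 to 67.1 TPM to 17.4 to 18.3 TPM. Metallothioneins, which bind zinc, were uneven at day 0: Mt2 had 538, 749 and 159 CPM there and 83.6, 85.8 and 92.8 CPM at day 3, and Mt1 had 337, 461 and 140 CPM at day 0. Lefty2 (3.36-fold), Sp5 (4.11-fold) and Trpm1 (3.76-fold) were among the other genes with the widest range over day 0 libraries. Of 7590 genes with at least 20 CPM at day 0, 13 to 31 differed over 2-fold between 2 replicates, against 3 of 7546 in each pair at day 3.

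Processed pseudogenes were called at least 4-fold lower in 11.2% and higher in 1.7% of 1058 cases. Zfp42-ps1 fell from 11.1, 11.1 and 10.4 CPM to 0.0332, 0.205 and 0.102 CPM and Ldha-ps2 rose (2.10 on the log2 scale), in the direction of Zfp42 and Ldha, with which they share sequence, so their counts are uncertain. Antisense genes rose by at least 4-fold in 26.4% and fell in 15.4% of 382 cases, against 11.7% and 10.6% of protein-coding genes. The strand setting of the counting is not given, so these counts could hold reads of genes on the opposite strand.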
